A study of Homo sapiens with 8 samples.

Results

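The genes described here control cell death: the BCL2 family, caspases and their adaptors and inhibitors, and the genes of necroptosis and of the gasdermins. They are 35 genes named by symbol, all 35 of which were found among the 24252 rows of each table. RNA was sequenced from HaCaT, an immortalised line of human skin keratinocytes, in 4 libraries labelled Control and 4 labelled OGD-R. The OGD-R cells had been deprived of oxygen and glucose and then given both back, the series' text calls the stage early, and the sources used here do not give how long each step lasted. Control cells carry no treatment label, and both groups come from the same line, an established line grown in culture and not skin. No label says that the libraries of a group are separate cultures. The p-values therefore measure only how far these libraries spread, which may be technical. Values are in FPKM (fragments per kilobase of transcript, scaled to library depth), a unit inferred from the values and not written in the tables.

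Cells die by several routes that these genes set. In the mitochondrial route, BH3-only proteins sense damage and block the protective BCL2 relatives, which frees BAK1 and BAX to open the outer mitochondrial membrane. Cytochrome c then leaves, binds APAF1 and activates caspase 9. In the receptor route, TRAIL and FAS ligand gather FADD and caspase 8 at their receptors, whereas TNF receptor 1 first gathers TRADD and RIPK1, and FADD and caspase 8 join in a later complex. CFLAR holds caspase 8 in check. Where caspase 8 is blocked, RIPK1 can activate RIPK3, which phosphorylates MLKL, and MLKL then breaks the cell membrane (necroptosis). Inflammatory caspases such as CASP1 and CASP4 cut GSDMD into a pore-forming fragment (pyroptosis). Keratinocytes depend on these brakes, since loss of caspase 8 or of its regulators inflames the epidermis.

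The 4 Control libraries did not lie together, and this touches most of the values below. Across the 11740 genes that averaged 1 FPKM or more, log2 values correlated at 0.992 between Controls 1 and 2 and at 0.991 between Controls 3 and 4, but between 0.874 and 0.881 across these pairs, and between 0.992 and 0.993 within OGD-R. With the OGD-R libraries, Controls 1 and 2 correlated at 0.940 to 0.947 and Controls 3 and 4 at 0.879 to 0.887. Controls 1 and 2 were thus closer to OGD-R than to the other Controls. Genes, over which these correlations are taken, are no independent replicates. All 9 markers of a keratinocyte list, KRT5 and KRT14 among them, were at 1 FPKM or more in every library, with sums between 10711 and 11874 FPKM in Controls and between 14068 and 15449 FPKM in OGD-R. The list did not move as 1: by the test described below, 4 of the 9 were called higher in OGD-R and 3 lower. Melanocyte markers (6 genes) summed to at most 0.699 FPKM and endothelial markers (5 genes) to at most 0.463 FPKM in any library. The fibroblast sum (7 genes) lay between 0.882 and 8.72 FPKM in Controls and between 3.82 and 4.99 FPKM in OGD-R, most of it COL1A1. The leukocyte sum (6 genes) lay between 12.4 and 16.8 FPKM in Controls and between 3.32 and 3.99 FPKM in OGD-R, most of it the lysosomal gene CD68, while PTPRC and CD3E, which define leukocytes, were at or near 0. What part these markers have in the results was not tested. Genes of the mitochondrial genome held 17.5% to 21.9% of the summed FPKM in Controls and 26.6% to 29.1% in OGD-R, with no overlap. The spacing of the lowest values put 16.9 to 25.0 M fragments behind each library. This estimate rests on 16 to 29 values per library and could fall only within a range set beforehand. In bulk RNA, fewer cells with a transcript and less of it per cell cannot be told apart.

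With all libraries, 4 of the 35 genes rose in OGD-R and 6 fell. BMF, CASP1, RIPK3 and APAF1 rose. PMAIP1, BIK, BID, BOK, BAK1 and GSDME fell. Of the 35, 32 reached the mean of 1 FPKM required for the test, and BCL2, BCL2A1 and CASP10 did not. RIPK3 and HRK averaged under 1 FPKM in Controls (0.772 and 0.787 FPKM) and reached that mean through OGD-R (1.78 and 1.56 FPKM). Their place among the 32, and in the shares below, thus depended on the difference itself. The test was limma on log2(FPKM + 1) over all 11740 genes with Benjamini-Hochberg adjustment at 0.05, and of all genes tested it called 19.9% (10.2% higher and 9.69% lower). Scaled without the mitochondrial genome's genes, the same 10 members were called in the same directions, while the calls over all genes went from 1202 higher and 1138 lower to 1600 higher and 871 lower. The 4 members that rose are 12.5% of the 32 tested and the 6 that fell 18.8%. The median log2 fold change of the 32 was -0.01, against 0.02 over all genes tested. In 12 of the 32 (37.5%) the libraries of the groups did not overlap, 4 with OGD-R above and 8 below, where 30.0% of all genes tested did not overlap (15.2% above and 14.8% below).

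**Figure D1:**
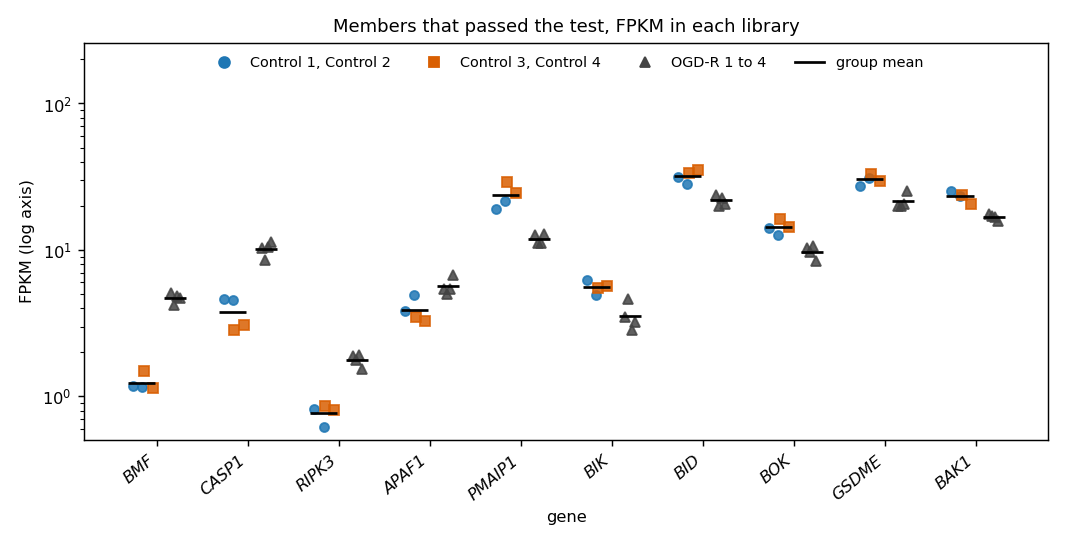
FPKM (log axis) of the 10 genes that passed the test, with 1 point per library and bars at the mean of 4 libraries. Every OGD-R library lies above every Control library for BMF, CASP1, RIPK3 and APAF1, and below every Control library for the other 6.

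The largest change among the BH3-only genes was in BMF, which encodes a protein held at the cytoskeleton and released on detachment or stress. BMF (ENSG00000104081, chromosome 15, 40087890 to 40108892, minus strand, GRCh38) was at 1.19, 1.16, 1.48 and 1.13 FPKM across Controls 1 to 4 and at 5.05, 4.18, 4.87 and 4.71 FPKM in OGD-R 1 to 4. The 4 Controls lay close together, and every OGD-R library was above them. Its log2 fold change was 1.35 ± 0.09 (SE; limma adjusted p = 0.000104), with 1.39 against Controls 1 and 2 alone and 1.31 against Controls 3 and 4 alone.

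The other 3 BH3-only genes that passed moved the opposite way to BMF. PMAIP1, which encodes NOXA, a binder of MCL1 and a known target of p53, lies on chromosome 18, 59899948 to 59904306, plus strand. PMAIP1 was at 18.96, 21.7, 29.3 and 24.4 FPKM across Controls 1 to 4 and at 12.7, 11.1, 11.1 and 12.8 FPKM in OGD-R 1 to 4, with every OGD-R library below every Control. PMAIP1 fell by 0.91 (log2, SE 0.14; limma adjusted p = 0.00312). BID, which caspase 8 cuts to link the receptor route to mitochondria, was at 31.4, 28.2, 33.4 and 35.4 FPKM across Controls 1 to 4 and at 23.7, 20.1, 22.8 and 20.7 FPKM in OGD-R. The groups of BID did not overlap, and it fell by 0.53 (SE 0.10; limma adjusted p = 0.00876). BIK, a BH3-only protein of the endoplasmic reticulum, was at 6.27, 4.93, 5.48 and 5.67 FPKM in the Controls, against 3.46, 4.60, 2.86 and 3.22 FPKM in OGD-R. Its highest OGD-R library and its lowest Control lay close, and it fell by 0.55 (SE 0.13; limma adjusted p = 0.0222). The call of BIK was lost without OGD-R 1, without OGD-R 3 or without OGD-R 4 (limma adjusted p from 0.0637 to 0.0716).

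Of the remaining BH3-only genes, BAD, BCL2L11 and HRK did not pass. HRK was at 0.0652 and 0.164 FPKM for Controls 1 and 2, 1.38 and 1.53 FPKM for Controls 3 and 4, and at 1.74, 1.37, 1.51 and 1.61 FPKM in OGD-R. OGD-R therefore overlapped with Controls 3 and 4 and lay above Controls 1 and 2 (limma adjusted p = 0.178 with all libraries). BCL2L11, which encodes BIM, had the same order, at 3.31 and 3.36 FPKM for Controls 1 and 2, 5.12 and 5.43 FPKM for Controls 3 and 4, and between 5.29 and 5.85 FPKM in OGD-R. BAD, a binder of BCL2L1 governed by growth factor kinases, ran the other way in the Controls, at 23.7 and 21.6 FPKM in Controls 1 and 2 against 14.8 and 11.8 FPKM in Controls 3 and 4, with OGD-R between 14.4 and 16.1 FPKM. The log2 fold changes with all libraries were 0.63 for HRK, 0.34 for BCL2L11 and -0.17 for BAD. At the low level of HRK the pseudocount of 1 compresses the value, which was 1.53 with a pseudocount of 0.1 (limma adjusted p = 0.190).

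Both multidomain members, BAK1 and its relative BOK, fell. BAK1 was at 25.4, 23.5, 23.7 and 20.6 FPKM across Controls 1 to 4 and at 17.7, 17.1, 16.7 and 15.6 FPKM in OGD-R 1 to 4. BOK, whose function is less settled, was at 14.1, 12.6, 16.3 and 14.4 FPKM in the Controls, against 10.2, 9.69, 10.6 and 8.35 FPKM in OGD-R. For neither gene did the groups overlap. BAK1 fell by 0.45 (log2, SE 0.09; limma adjusted p = 0.0115) and BOK by 0.52 (SE 0.11; limma adjusted p = 0.0133). BAX, the partner of BAK1, is not one of the 35 genes and did not pass: it was at 52.9, 51.5, 30.2 and 22.9 FPKM over Controls 1 to 4 and between 24.8 and 29.95 FPKM in OGD-R.

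No protective BCL2 relative passed with all libraries. MCL1, a short-lived protein bound by NOXA, and BCL2L1, which encodes BCL-XL, were the most abundant of them per length. MCL1 was at 106, 114, 196 and 173 FPKM over Controls 1 to 4 and between 106 and 118 FPKM in OGD-R, so OGD-R overlapped with Controls 1 and 2 and lay below Controls 3 and 4 (log2 fold change -0.35, 95% interval -0.81 to 0.11; limma adjusted p = 0.249). BCL2L1 was at 67.9, 62.9, 105 and 103 FPKM in Controls and between 59.5 and 62.4 FPKM in OGD-R, below every Control but close to Controls 1 and 2 (log2 fold change -0.43, 95% interval -0.85 to -0.02 before adjustment; limma adjusted p = 0.129). Without Control 2 it passed (limma adjusted p = 0.0454). BCL2L2, which encodes BCL-W, lay between 11.5 and 19.3 FPKM in Controls and between 16.2 and 17.6 FPKM in OGD-R. BCL2 itself was low in every library, between 0.1002 and 0.470 FPKM in Controls and between 0.154 and 0.280 FPKM in OGD-R. BCL2A1, an inducible relative and known NF-kB target, was listed at 0 in all 4 OGD-R libraries and in Control 1, at 0.0226 FPKM in Control 2, and at 0.898 and 0.472 FPKM in Controls 3 and 4.

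Among the genes of the apoptosome, APAF1, its scaffold, passed only narrowly. APAF1 was at 3.86, 4.94, 3.50 and 3.27 FPKM across Controls 1 to 4 and at 5.43, 4.99, 5.40 and 6.71 FPKM in OGD-R 1 to 4. Control 2 and OGD-R 2 nearly touched, and the log2 fold change was 0.45 ± 0.13 (SE; limma adjusted p = 0.0472). This call was lost in 7 of the 8 fits that left out 1 library (limma adjusted p from 0.0174 to 0.129 over the 8), all but the one without Control 2, and also without Controls 3 and 4 (limma adjusted p = 0.0621) and with no filter on low values (limma adjusted p = 0.0743). CASP9, the caspase activated by the apoptosome, was at 0.738 and 0.298 FPKM for Controls 1 and 2, 2.92 and 3.43 FPKM for Controls 3 and 4, and at 1.73, 1.23, 1.23 and 1.20 FPKM in OGD-R. CYCS, which encodes cytochrome c, ran the other way, at 106 and 107 FPKM for Controls 1 and 2, 57.2 and 48.7 FPKM for Controls 3 and 4, and at 75.8, 86.6, 76.5 and 81.01 FPKM in OGD-R. For both genes all OGD-R libraries lay between the pairs of Controls, and neither passed with all libraries (limma adjusted p = 0.882 and 0.840). GENCODE 29 names 40 pseudogenes after CYCS, so its level is uncertain. DIABLO, which counters the caspase inhibitors, was between 27.6 and 30.4 FPKM in Controls and between 24.7 and 26.3 FPKM in OGD-R (log2 fold change -0.16; limma adjusted p = 0.170).

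**Figure D2:**
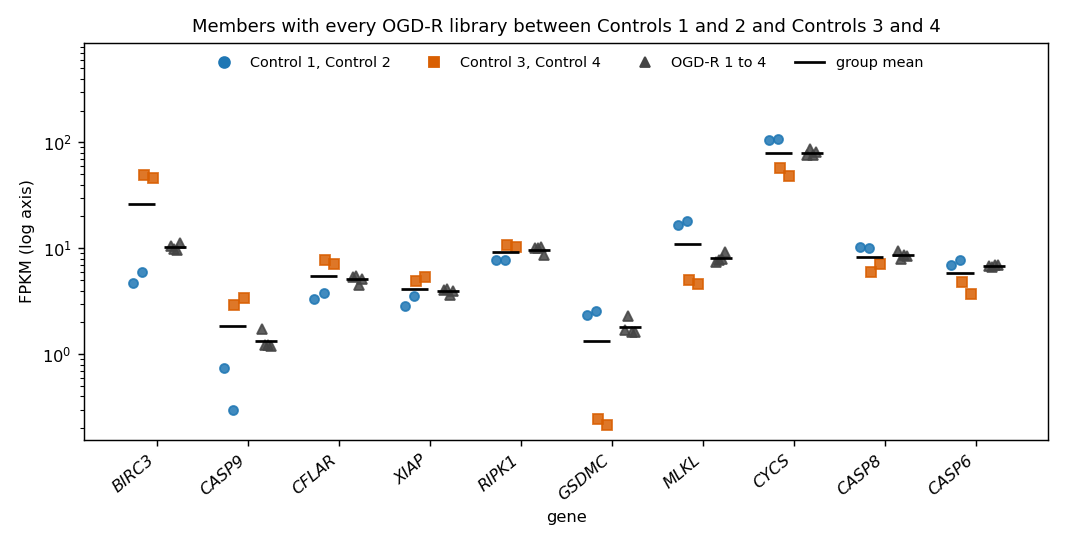
FPKM (log axis) of the 10 genes whose 4 OGD-R libraries all lie between Controls 1 and 2 and Controls 3 and 4, with 1 point per library and bars at group means. BIRC3, CASP9, CFLAR, XIAP and RIPK1 are higher in Controls 3 and 4 than in Controls 1 and 2, and GSDMC, MLKL, CYCS, CASP8 and CASP6 are lower.

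OGD-R lay between the pairs of Controls in 10 of the 32 tested members (31.2%), as in 20.4% of all genes tested. BIRC3, a ubiquitin ligase of the TNF receptor complex and a known NF-kB target, had the largest standard error of the 32. BIRC3 (ENSG00000023445, chromosome 11, 102317450 to 102339403, plus strand) was at 4.68 and 5.96 FPKM for Controls 1 and 2, 48.97 and 46.2 FPKM for Controls 3 and 4, and at 10.5, 9.85, 9.75 and 11.3 FPKM in OGD-R. Its log2 fold change was -0.63 ± 0.74 with all libraries (SE; limma adjusted p = 0.586). Against Controls 1 and 2 alone it was 0.85 (limma adjusted p = 0.000111), and against Controls 3 and 4 alone -2.10 (limma adjusted p = 2.65e-08). The direction of BIRC3 therefore depended on which Controls were kept.

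The promoter of BIRC3 is shown because the Controls of this gene lay so far apart and because NF-kB binds short recognisable motifs. It is the sequence before the RefSeq start, from GRCh38.p14, plus strand, chr11:102317234-102317449, and ends at the first annotated exon. Capitals mark the matches to the NF-kB motif.
BIRC3: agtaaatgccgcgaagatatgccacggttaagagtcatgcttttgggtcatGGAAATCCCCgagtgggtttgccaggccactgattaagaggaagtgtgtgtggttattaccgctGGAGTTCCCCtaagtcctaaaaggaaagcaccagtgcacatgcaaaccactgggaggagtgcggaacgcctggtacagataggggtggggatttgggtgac
Searched on both strands of the 250 bases before the start, the NF-kB motif was found in 9.96% of 35114 RefSeq promoters. Among the members it was found in 3 of the 26 with an entry, BIRC3, CFLAR and BMF. CFLAR holds GGGGAATTCC 97 to 88 bases before its start, and BMF holds GGGATGCCCC 20 to 11 bases before. Among the members whose highest Control was at least 4 times the lowest, BIRC3 holds matches, HRK and CASP9 hold none and GSDMC has no entry. Whether the motif has a part in the spread of the Controls was not tested. A match is a description of these letters and does not show binding.

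The neighbour of BIRC3 varied less. BIRC2 encodes a closely related ligase, and 7.8 kilobases separate the genes on chromosome 11. BIRC2 was at 16.4, 18.6, 27.7 and 23.1 FPKM over Controls 1 to 4 and between 27.2 and 29.5 FPKM in OGD-R, overlapping with Control 3 (log2 fold change 0.41, 95% interval 0.06 to 0.77 before adjustment; limma adjusted p = 0.0975). Without Control 3 it passed (limma adjusted p = 0.0279). XIAP, which blocks caspases directly, was at 2.85, 3.54, 4.91 and 5.37 FPKM in Controls and between 3.65 and 4.13 FPKM in OGD-R (log2 fold change -0.04; limma adjusted p = 0.899).

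None of the 5 tested adaptors and initiators of the receptor route passed with all libraries. CASP8, the initiator caspase, was at 10.2, 10.03, 6.01 and 7.08 FPKM across Controls 1 to 4 and at 9.38, 7.92, 8.65 and 8.40 FPKM in OGD-R. CFLAR, its catalytically inactive relative and brake, was at 3.32, 3.75, 7.85 and 7.20 FPKM in the Controls, against 5.38, 5.47, 4.53 and 5.18 FPKM in OGD-R. The Controls with more CASP8 thus had less CFLAR, and OGD-R lay between for both. CFLAR, CASP10 and CASP8 lie in a row on chromosome 2, with 6.2 and 4.0 kilobases between them. CASP10, a second initiator caspase, was too low to be tested, at 0.596, 0.568, 0.754 and 0.528 FPKM in the Controls, against 0.982, 1.17, 1.02 and 1.11 FPKM in OGD-R. Every OGD-R library of CASP10 was above every Control, and it was called higher where the filter was lowered to a mean of 0.5 FPKM (log2 fold change 0.36; limma adjusted p = 0.0187).

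The adaptors shared no single order across the Controls. FADD, which joins receptors to caspase 8, was at 36.3 and 34.7 FPKM for Controls 1 and 2, 20.9 and 18.7 FPKM for Controls 3 and 4, and between 20.7 and 22.4 FPKM in OGD-R (log2 fold change -0.28; limma adjusted p = 0.392). TRADD, the adaptor of TNF receptor 1, lay between 10.1 and 12.2 FPKM in Controls and between 9.86 and 12.4 FPKM in OGD-R (log2 fold change -0.0022, 95% interval -0.23 to 0.23; limma adjusted p = 0.989). RIPK1, the kinase at which survival, apoptosis and necroptosis part, lay between 7.80 and 10.8 FPKM in Controls and between 8.73 and 10.2 FPKM in OGD-R (limma adjusted p = 0.644).

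Of the caspases outside those complexes, CASP1 rose. CASP1, the interleukin 1 beta converting enzyme (ENSG00000137752, chromosome 11, 105025443 to 105035250, minus strand), was at 4.61, 4.57, 2.86 and 3.06 FPKM across Controls 1 to 4 and at 10.3, 8.55, 10.5 and 11.2 FPKM in OGD-R 1 to 4. Every OGD-R library was above every Control, by more against Controls 3 and 4. Its log2 fold change was 1.24 ± 0.16 (SE; limma adjusted p = 0.00141), with 0.99 against Controls 1 and 2 alone and 1.49 against Controls 3 and 4 alone. GENCODE 29 names 2 pseudogenes after CASP1, so some reads may be shared. CASP4, the sensor of intracellular lipopolysaccharide, lies 56.0 kilobases from CASP1, with CASP5 between them. CASP4 was between 21.9 and 34.7 FPKM in Controls and between 29.6 and 34.3 FPKM in OGD-R (log2 fold change 0.22, limma adjusted p = 0.291). CASP6, an executioner caspase, was at 7.03, 7.74, 4.76 and 3.73 FPKM in Controls and between 6.71 and 6.98 FPKM in OGD-R (log2 fold change 0.25; limma adjusted p = 0.388).

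The necroptosis kinase and its substrate behaved differently. RIPK3 (ENSG00000129465, chromosome 14, 24336021 to 24340045, minus strand) was low, at 0.815, 0.614, 0.856 and 0.801 FPKM across Controls 1 to 4 and at 1.90, 1.78, 1.92 and 1.53 FPKM in OGD-R 1 to 4. All Controls lay below all OGD-R libraries, and the log2 fold change was 0.65 ± 0.10 (SE; limma adjusted p = 0.00312), a size that the pseudocount of 1 understates at this level and that was 1.11 with a pseudocount of 0.1. RIPK3 reached the mean of 1 FPKM only through OGD-R (0.772 ± 0.108 FPKM in Controls, 1.78 ± 0.180 FPKM in OGD-R; SD, n = 4), so the filter itself depended on the difference. It was also called with a filter at 0.5 FPKM (limma adjusted p = 0.00214) and with no filter (limma adjusted p = 0.00304). MLKL (ENSG00000168404, chromosome 16, 74671855 to 74700960, minus strand) was at 16.6 and 18.2 FPKM for Controls 1 and 2, 5.04 and 4.64 FPKM for Controls 3 and 4, and at 7.45, 7.81, 7.93 and 9.23 FPKM in OGD-R. OGD-R lay between, and MLKL was called either way. Against Controls 1 and 2 alone the difference was -1.02 (log2; limma adjusted p = 2.27e-05), and against Controls 3 and 4 alone 0.64 (log2; limma adjusted p = 0.00022).

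Of the gasdermins, whose cut forms make membrane pores, GSDME fell. GSDME was at 27.4, 30.8, 33.1 and 29.8 FPKM across Controls 1 to 4 and at 19.9, 19.99, 20.6 and 25.2 FPKM in OGD-R 1 to 4. OGD-R 4 was nearest to the Controls but below them all, and GSDME fell by 0.48 (log2, SE 0.11; limma adjusted p = 0.0162). This call was lost without OGD-R 1, without OGD-R 2 or without OGD-R 3 (limma adjusted p from 0.0554 to 0.0596). GSDMD, the substrate of inflammatory caspases, was at 8.76, 7.18, 3.51 and 2.85 FPKM in the Controls, against 8.41, 8.19, 7.45 and 7.32 FPKM in OGD-R, so OGD-R overlapped with Controls 1 and 2 and lay above Controls 3 and 4 (log2 fold change 0.53; limma adjusted p = 0.232). GSDMC, which caspase 8 can cut, was at 2.36 and 2.54 FPKM for Controls 1 and 2, 0.243 and 0.213 FPKM for Controls 3 and 4, and at 1.69, 2.31, 1.64 and 1.62 FPKM in OGD-R (log2 fold change 0.45, or 1.05 with a pseudocount of 0.1; limma adjusted p = 0.449 and 0.362).

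**Figure D3:**
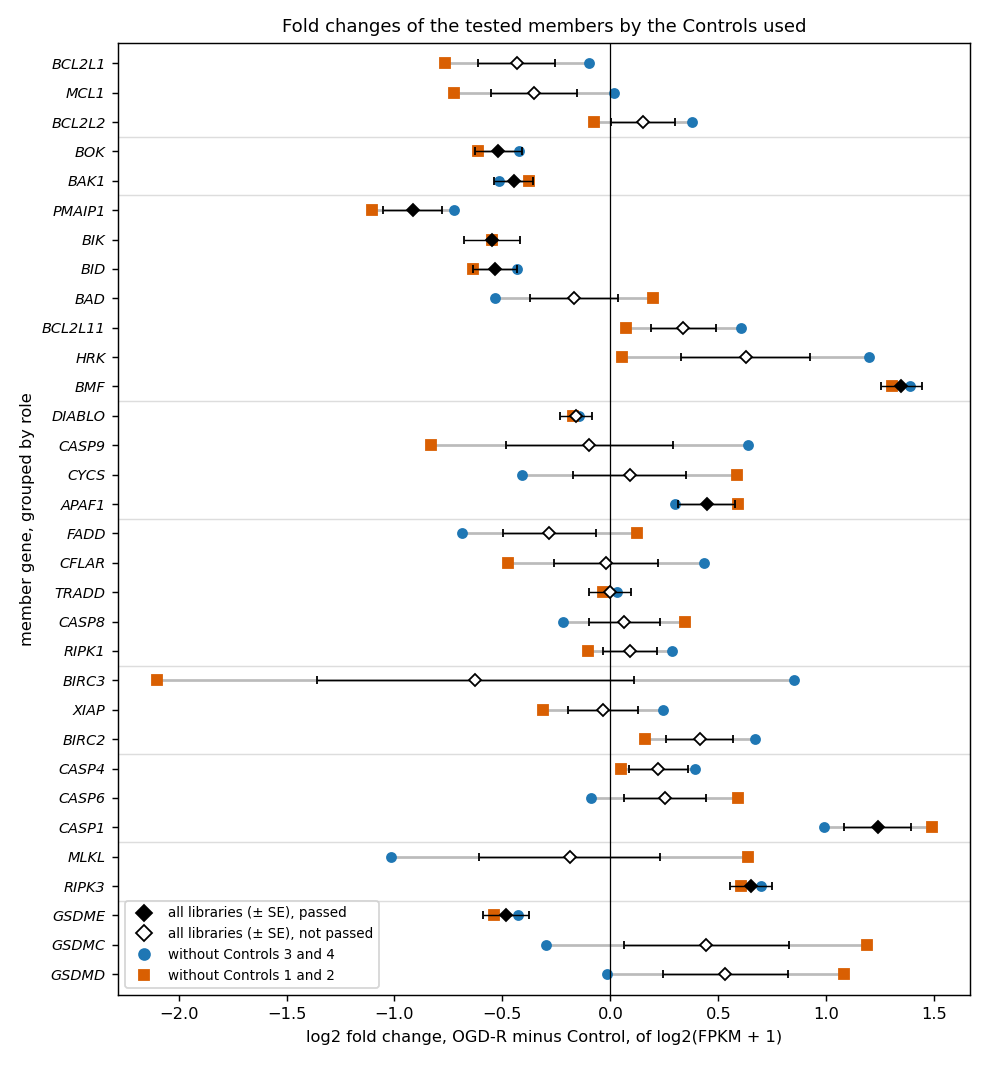
Log2 fold change (OGD-R minus Control) of the 32 tested genes, grouped by role, with all libraries (diamond ± SE) and with either pair of Controls left out. The values of BMF run from 1.31 to 1.39 and those of RIPK3 from 0.60 to 0.70, while BIRC3 runs from -2.10 to 0.85 and MLKL from -1.02 to 0.64.

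Set against either pair of Controls, 9 of the 10 genes that passed kept their call, and APAF1 did not. Their direction was fixed, since their groups do not overlap, and 99.2% of all 2340 genes called kept call and direction in both fits. The pairs follow the libraries' own correlations, which takes the spread between pairs out of these fits. Against Controls 1 and 2 alone, 12 members were called higher and 11 lower, where 55.2% of all genes tested were called (22.8% higher and 32.4% lower). Against Controls 3 and 4 alone, 10 were higher and 13 lower, where 67.6% of all genes tested were called (39.2% higher and 28.4% lower). In 6 members, CYCS, CASP9, CASP8, CFLAR, BIRC3 and MLKL, both fits called a change but in opposite directions (18.8% of the 32, and 15.2% of all genes tested). In 9 members both fits called the same direction (24.0% of all genes tested). Among the 32, HRK, CASP9, BIRC3 and GSDMC had a highest Control at least 4 times the lowest (12.5%, and 8.81% of all genes tested). The fits against either pair share the OGD-R libraries, and their p-values rest on the spread within 2 Controls and within OGD-R. Some member levels are uncertain because reads could be shared. In GENCODE 29, 21 of the 35 overlap another gene, among them the called BMF, BAK1, BOK, BID, APAF1 and RIPK3. In 4 (BCL2L2, BAD, TRADD and CASP6) an overlapping gene had a mean of at least 1 FPKM, many of the others are not among the genes of the tables used here, and XIAP and BAK1 have 3 and 2 pseudogenes named after them.

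A further 90 genes of the same pathways gave the setting, and 75 of them were tested: 4 rose and 9 fell, with a median log2 fold change of -0.11. That is 17.3% of the 75, where 19.9% of all genes tested were called. Death receptors and ligands gave 2 higher and 1 lower of 9 tested, and regulators of the receptor complex 0 higher and 3 lower of 16. Other BCL2 and mitochondrial genes gave 2 higher and 2 lower of 21, other caspases, substrates and inhibitors 0 and 2 of 15, and further genes of necroptosis and pyroptosis 0 and 1 of 14. TNFSF10, which encodes the death ligand TRAIL, rose. TNFSF10 was at 1.59, 3.44, 8.39 and 10.2 FPKM across Controls 1 to 4 and at 34.9, 29.2, 34.8 and 36.2 FPKM in OGD-R 1 to 4, above every Control. Its log2 fold change was 2.55 ± 0.43 (SE; limma adjusted p = 0.00531). TNFRSF10A, a TRAIL receptor, moved the other way, from 9.71, 10.4, 17.7 and 17.00 FPKM in Controls to between 5.98 and 6.88 FPKM in OGD-R, and fell by 0.93 (SE 0.20; limma adjusted p = 0.0134). TNFRSF10B, the other signalling TRAIL receptor, was at 11.9, 13.8, 31.2 and 28.8 FPKM in Controls and between 10.8 and 13.4 FPKM in OGD-R, and did not pass (limma adjusted p = 0.161).

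**Figure D4:**
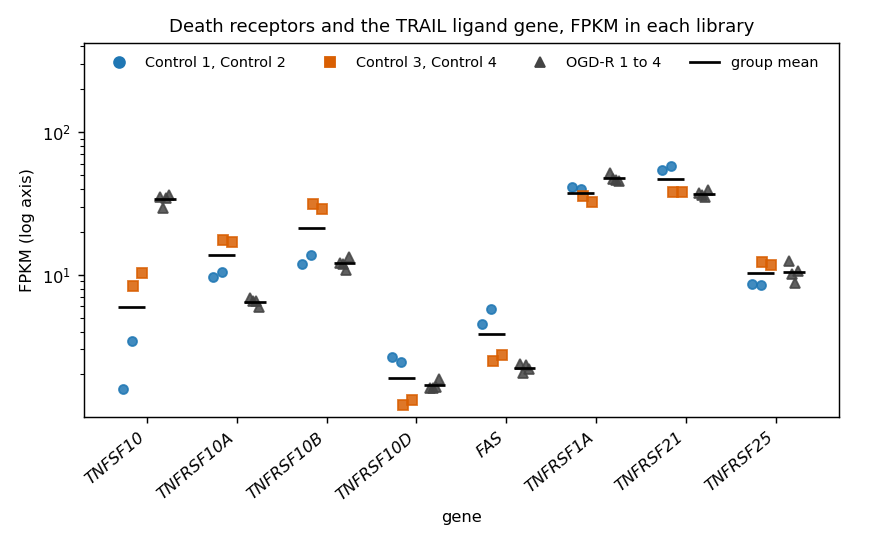
FPKM (log axis) of TNFSF10 and 7 death receptor or decoy receptor genes, with 1 point per library and bars at group means. TNFSF10 and TNFRSF1A lie above every Control in OGD-R, and TNFRSF10A and FAS below every Control.

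The other receptor called was TNFRSF1A. TNFRSF1A, TNF receptor 1, rose from between 32.6 and 41.5 FPKM in Controls to between 45.4 and 51.4 FPKM in OGD-R (log2 fold change 0.34 ± 0.10, SE; limma adjusted p = 0.0477), a call kept only without Control 1 or without Control 2 among the 8 fits that left out 1 library (limma adjusted p up to 0.130). FAS was at 4.50, 5.76, 2.47 and 2.72 FPKM in Controls and between 2.05 and 2.36 FPKM in OGD-R, below every Control, but did not pass (log2 fold change -0.54; limma adjusted p = 0.113). TNFRSF21 (limma adjusted p = 0.197), TNFRSF25 (0.913) and the decoy receptor TNFRSF10D (0.788) did not pass either. FASLG was listed at 0 in all 8 libraries, and TNFRSF10C in all but OGD-R 1. TNF itself was at 0.0423, 0.0487, 8.48 and 8.90 FPKM across Controls 1 to 4 and at most 0.127 FPKM in OGD-R. It did not pass (log2 fold change -1.58, limma adjusted p = 0.202), and it reached the mean of 1 FPKM only through Controls 3 and 4. Against Controls 1 and 2 alone its log2 fold change was 0.0214.

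Most of the other genes called were lower. PPIF, which encodes cyclophilin D of the mitochondrial permeability pore, fell by 0.99 on the log2 scale (limma adjusted p = 0.00135), from between 75.1 and 106 FPKM to between 40.6 and 45.8 FPKM. AVEN, an inhibitor of APAF1 activation, fell by 0.97 from between 15.2 and 20.6 FPKM to between 6.82 and 9.03 FPKM. APAF1 itself was higher, by a call kept in only 1 of the 8 fits that left out 1 library. PEA15, a death effector domain protein that binds FADD and caspase 8, fell by 1.05 from between 93.1 and 186 FPKM to between 60.99 and 63.7 FPKM, and its call was lost narrowly without OGD-R 2 or without OGD-R 3 (limma adjusted p = 0.0502 and 0.0503). TRAF3, a partner of BIRC2 and BIRC3, and DPP9, a protease that restrains the NLRP1 inflammasome, fell by 0.53 and 0.48. SHARPIN and RBCK1, both subunits of the linear ubiquitin ligase that keeps TNF receptor signalling from killing, fell by 0.44 and 0.91. RBCK1 was named after its values were seen, and its call was kept only without Control 1 or without Control 2 among the 8 fits that left out 1 library (limma adjusted p up to 0.0882). The catalytic subunit RNF31, also named after its values were seen, did not pass (log2 fold change -0.15; limma adjusted p = 0.306). BAG3, a chaperone partner, fell by 0.39, whereas BAG1, another of that family, rose by 0.61 from between 20.4 and 24.1 FPKM to between 31.9 and 37.5 FPKM. BCL2L10, a BCL2 relative, rose by 0.48, or by 0.75 with a pseudocount of 0.1. Its mean was 1.14 ± 0.180 FPKM in Controls (SD, n = 4) and 1.97 ± 0.165 FPKM in OGD-R (SD, n = 4).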

How the data were processed

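Each library has its own deposited table (gene ID, symbol, value), and titles gave the groups. The labels' protocols start from total RNA and name NEBNext and SMARTer kits. The sources used here give no aligner, counter or build. The deposited values were read as FPKM, since their sums differ between libraries and some low values of single-exon genes fall on steps that scale with length (16 to 29 of 57 to 82 low values per library within 0.5% of a step). The step of each library was chosen, within a range set beforehand, to hold the most values. All 19974 Ensembl IDs were found in GENCODE 29 (GRCh38). Of 2 IDs named DIABLO the higher was kept. The members and lists were chosen with earlier results of these data known, and 1 symbol entered by mistake (ARC) was dropped. Members chosen to be given with every library were those past the threshold, those called oppositely with either pair of Controls left out, and those with Controls at least 4-fold apart. GSDMD, CASP10 and BCL2A1 are given with every library outside this rule. Of the further genes, at most 8 per direction by p were named, plus BAX and the death receptors. Some results are not reported here. Tests used limma 3.58.1 (R 4.3.3) with an intensity trend. A check on simulated data drew each library independently, so it did not hold the split between the pairs of Controls. Count models were not used, as no file holds counts. How reads were divided among overlapping genes is not given. Promoters came from RefSeq (GRCh38.p14), the first entry per symbol. Figures used matplotlib 3.10.9.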

Additional observations from a re-analysis of the deposited data

Results flagged for a closer look

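In groups of 4 libraries, 1 library stood apart from the rest in 10 of 108 groups examined for the genes named (the gap to the nearest library, as a share of the group's range, was above Dixon's 95% critical value). For independent, normally spread values this rule flags about 1 in 20 groups. The Controls of many genes fell in pairs, so the count cannot be set against that rate. Among the members, CASP9 stood apart in OGD-R 1 (0.944 of the range), GSDMC in OGD-R 2 (0.896), GSDME in OGD-R 4 (0.870), BMF in Control 3 (0.851), RIPK1 in OGD-R 4 (0.842) and BCL2L2 in OGD-R 3 (0.836). Of the other genes, BAG1 stood apart in Control 4 (0.919), AVEN in OGD-R 3 (0.885) and TNFRSF10D in OGD-R 4 (0.872). TNFRSF10C was above 0 in OGD-R 1 only (a share of 1).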

How the results depend on the processing

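Counts of genes called (higher, then lower) were 4 and 6 for the members, 4 and 9 for the further pathway genes and 1202 and 1138 over all genes. Without Controls 3 and 4 they were 12 and 11, 13 and 33, and 2673 and 3807. Without Controls 1 and 2 they were 10 and 13, 22 and 24, and 4603 and 3337. At a mean of at least 5 FPKM, 1 member (CASP1) and 689 genes were higher. BMF, RIPK3 and APAF1 averaged under 5 FPKM, so that filter left them untested. Scaled without mitochondrial genome genes, 7 further genes and 1600 of all genes were higher, and 871 of all genes lower. Leaving out 1 library gave 3 to 4 members higher and 4 to 7 lower, 3 to 5 and 7 to 11 further genes, and 711 to 1426 and 561 to 1312 of all genes. Same-numbered libraries did not deviate together (correlations 0.0450 to 0.0646). Of the Controls, only Control 3 correlated best with the OGD-R library of its own number. The fit with the replicate block called 3 members higher and 2 lower, 2 and 5 further genes, and 625 and 507 of all genes. Under that block BMF, CASP1, RIPK3, PMAIP1 and BID kept their calls, and BAK1, BOK, BIK, GSDME and APAF1 did not.

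Log2 fold changes that changed sign without Controls 1 and 2 were BCL2L2 -0.0763, BAD 0.20, FADD 0.12, RIPK1 -0.10, MLKL 0.64, BAX 0.0304, TNFRSF10D 0.24 and TNFRSF25 -0.19. Without Controls 3 and 4 they were MCL1 0.0162, CYCS -0.41, CASP9 0.64, TRADD 0.0288, CASP8 -0.22, CFLAR 0.44, XIAP 0.24, BIRC3 0.85, CASP6 -0.0902, GSDMC -0.30, GSDMD -0.0172 and TNF 0.0214. A pseudocount of 0.1 gave CASP9 0.0624. Scaling without mitochondrial genome genes gave TRADD 0.0665, CFLAR 0.0402 and XIAP 0.0224, and moved the median of all genes by 0.07. Leaving out 1 library changed the sign of CYCS (-0.11 to 0.26), CASP9 (-0.41 to 0.18), TRADD (-0.0557 to 0.0448), CASP8 (-0.0638 to 0.16), CFLAR (-0.19 to 0.15), XIAP (-0.17 to 0.0753), MLKL (-0.48 to 0.11), TNFRSF10D (-0.20 to 0.0422) and TNFRSF25 (-0.0503 to 0.11). The cause was not tested. Of 994 gene values under all alternatives, 879 kept direction and side of the threshold. Count models with other size factors were not run, since the values are not counts. Genes under 1 FPKM rest on few fragments and were tested only where the filter was lowered or dropped, which called CASP10 higher and, with no filter, neither BCL2 nor BCL2A1 (limma adjusted p = 0.677 and 0.273).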
